A study of Homo sapiens with 6 samples.

Results

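The cyclin-dependent kinase (CDK) inhibitor genes and the long noncoding RNA CDKN2B-AS1 were followed in SH-SY5Y, an established human neuroblastoma cell line. The set was chosen by name, as the 4 INK4 genes CDKN2A, CDKN2B, CDKN2C and CDKN2D, the 3 CIP/KIP genes CDKN1A, CDKN1B and CDKN1C, and CDKN2B-AS1. All 8 were found, each on a single row, among the 60612 genes of the deposited table. RNA-seq libraries came from 3 samples infected with a control vector, titled stuffer, and 3 infected to overexpress CDKN2B-AS1, here called labelled overexpression. The labels do not state whether libraries of one kind are separate cultures, and p-values therefore reflect only library-to-library spread, possibly technical. Column names bear the tags LVx1 (control vector) and LVx2 (labelled overexpression); their meaning is not stated, and whatever they mark cannot be told apart from the vector itself.

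CDK inhibitors are the brakes of the cell cycle. INK4 proteins bind CDK4 and CDK6 and keep them from D-type cyclins, whereas CIP/KIP proteins bind complexes of cyclins with CDK2 and other CDKs. When CDKs are held back, RB family proteins stay bound to E2F factors and genes for DNA replication stay off. CDKN2B-AS1, also known as ANRIL, is transcribed antisense to CDKN2B, and has been described as recruiting Polycomb complexes that silence the INK4 genes beside it.

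None of the 8 genes passed the test between the groups, and the lncRNA named in the labels was itself only 1.33 times its control mean in the labelled overexpression libraries. CDKN1B, which encodes p27, showed the largest ratio of means, 1.90, with all 3 labelled overexpression libraries above all 3 controls at a level under 1 FPKM. CDKN2C, which encodes p18, was 1.31 times its control mean, again with the groups apart. CDKN2B, the antisense partner of the lncRNA, was 0.543 of its control mean at the edge of detection. CDKN1A, which encodes p21 and was the most abundant inhibitor message, CDKN2A, CDKN2D and CDKN1C overlapped between the groups.

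The genes lie on 6 chromosomes of GRCh38, as the table gives them. CDKN2B-AS1 (ENSG00000240498) occupies chromosome 9 from 21994139 to 22128103 on the plus strand. CDKN2A (ENSG00000147889), at 21967752 to 21995301, and CDKN2B (ENSG00000147883), at 22002903 to 22009305, lie on the minus strand of the same chromosome. CDKN2C (ENSG00000123080) is on chromosome 1 from 50960745 to 50974634 on the plus strand, and CDKN2D (ENSG00000129355) on chromosome 19 from 10566460 to 10569059 on the minus strand. CDKN1A (ENSG00000124762) is on chromosome 6 from 36676460 to 36687337 and CDKN1B (ENSG00000111276) on chromosome 12 from 12685498 to 12722369, each on the plus strand. CDKN1C (ENSG00000129757) is on chromosome 11 from 2883213 to 2885775 on the minus strand.

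The first exons of CDKN2B-AS1 run through the first exons of CDKN2A on the other strand. Of the 20420 exon bases of the CDKN2B-AS1 model, 593 are also exon bases of CDKN2A, which is 2.90% of the lncRNA's and 15.3% of CDKN2A's 3885. A share of bases is not a share of fragments: CDKN2A held 581.42 to 1224.92 fragments in the controls and CDKN2B-AS1 168.92 to 250.08. In the labelled overexpression libraries they held 359.58 to 697.0 and 127.08 to 353.42. CDKN2B lies whole within the span of CDKN2B-AS1 over 6403 bases but shares 0 exon bases with it. The strand setting of the counting is not given in the sources used, so fragments from the shared bases of CDKN2A and CDKN2B-AS1 could not be told apart. The CDKN2A row sums 14 transcripts, so messages for its products p16INK4a and p14ARF, which use different first exons, were not separated.

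**Figure D1:**
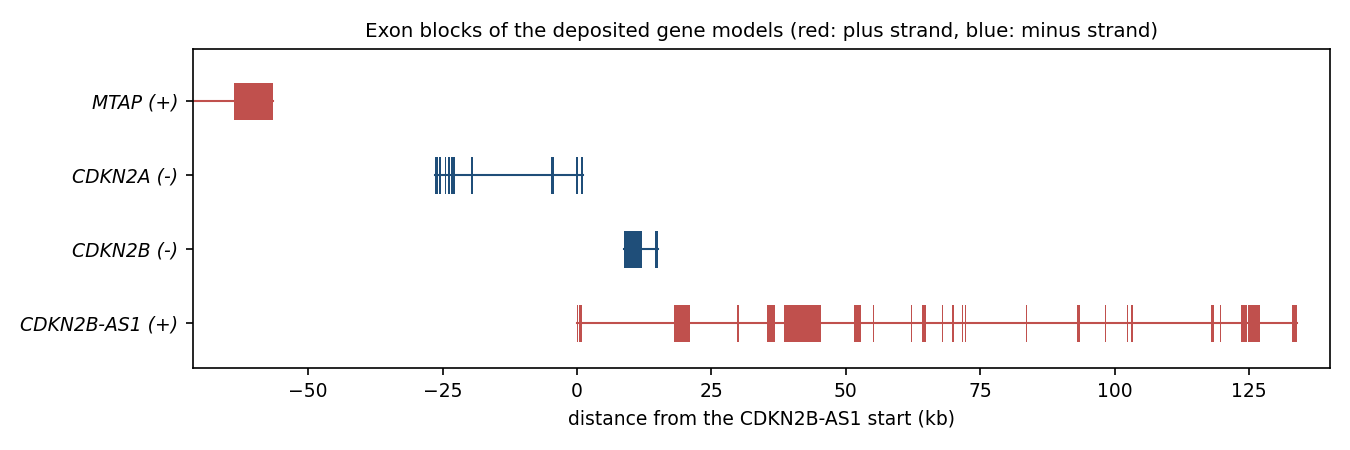
Exon blocks (boxes) and spans (lines) of MTAP, CDKN2A, CDKN2B and CDKN2B-AS1 in the deposited table, by distance in kb from the start of CDKN2B-AS1. CDKN2A touches the 5′ end of CDKN2B-AS1 and shares 593 exon bases with it, while CDKN2B falls between exons of the lncRNA, and MTAP continues beyond the left edge.

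The 250 bases upstream of a transcription start are shown for the 4 genes whose libraries did not overlap between the groups, because the proximal promoter of a gene adjoins its start. For CDKN2B-AS1 the RefSeq start lies inside the deposited gene model, which begins farther upstream, and 241 of the 250 bases shown are exon bases of that model. The RefSeq start of CDKN1B also lies inside its deposited model, which begins upstream at 12685498, and 0 of the bases shown are its exon bases. All windows are from RefSeq on GRCh38.p14, 5′ to 3′ on the strand of the gene. Capitals mark matches on either strand to the GC box GGGCGG, the E2F words TTTGGCGC, TTTCGCGC and TTTCCCGC, CCAAT, the E-box CACGTG and the FOXO word TGTTTAC.
CDKN2B-AS1, chr9:21994541-21994790, plus strand: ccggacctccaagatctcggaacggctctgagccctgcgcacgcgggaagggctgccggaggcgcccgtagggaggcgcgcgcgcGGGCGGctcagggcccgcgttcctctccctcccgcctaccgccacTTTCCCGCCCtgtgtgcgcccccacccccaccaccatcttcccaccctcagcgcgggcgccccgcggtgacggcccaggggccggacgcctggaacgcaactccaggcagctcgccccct
CDKN2B, chr9:22009306-22009555, minus strand: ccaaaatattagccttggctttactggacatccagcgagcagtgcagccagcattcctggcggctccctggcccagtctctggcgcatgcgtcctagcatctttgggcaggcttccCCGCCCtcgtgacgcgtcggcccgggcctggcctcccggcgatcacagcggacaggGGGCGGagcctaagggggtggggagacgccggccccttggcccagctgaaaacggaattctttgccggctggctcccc
CDKN2C, first of 3 RefSeq starts, chr1:50960495-50960744, plus strand: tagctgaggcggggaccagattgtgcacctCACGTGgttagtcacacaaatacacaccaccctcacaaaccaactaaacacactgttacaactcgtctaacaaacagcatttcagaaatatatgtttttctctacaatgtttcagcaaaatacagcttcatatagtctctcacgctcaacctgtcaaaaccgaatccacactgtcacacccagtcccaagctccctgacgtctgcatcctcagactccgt
CDKN1B, chr12:12717118-12717367, plus strand: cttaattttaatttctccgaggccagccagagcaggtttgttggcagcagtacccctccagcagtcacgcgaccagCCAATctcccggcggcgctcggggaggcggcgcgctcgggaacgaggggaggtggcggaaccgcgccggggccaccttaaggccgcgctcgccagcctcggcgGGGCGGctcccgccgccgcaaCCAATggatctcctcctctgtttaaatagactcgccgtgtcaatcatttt

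The window of CDKN2B-AS1 held 2 GC boxes and 1 E2F word, which overlaps a GC box on the other strand. That of CDKN2B held 2 GC boxes, that of CDKN1B held 1 GC box and 2 CCAAT words, and the first of CDKN2C held 1 E-box. The other CDKN2C windows differed from it: that at the second start held 5 GC boxes, with 77.2% G and C bases, all 250 of them exon bases of the deposited model, and that at the third held 1 GC box, 1 CCAAT word and 1 E-box, with 48.8%. Among 34943 upstream windows of the same length in the RefSeq table, 42.5% held a GC box, 2.31% an E2F word, 32.0% CCAAT, 6.32% the E-box and 2.98% the FOXO word. The 4 windows printed had 75.6%, 66.4%, 45.6% and 64.4% G and C bases in the order shown, against a median of 58.0% over all windows. A match describes the letters and is not evidence of binding.

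Depth, recovered from the steps of the values, ran from 20466583 to 48996425 fragments per library. Of 13 listed markers of adrenergic neuroblastoma cells, 12 reached 1 FPKM in every library, TH being the exception, and their summed level was 1236 to 1387 FPKM in control vector and 1312 to 1423 FPKM in labelled overexpression libraries. Epithelial markers summed to at most 0.443 FPKM, with KRT5 and KRT14 at 0 in all libraries, and immune markers to at most 0.738 FPKM, with PTPRC and CD3E among those at 0. Of 6 fibroblast markers, 4 reached 1 FPKM in every library, COL1A1 and COL1A2 being the exceptions, as did 1 of 5 glial and Schwann markers. Fibroblast markers summed to 26.6 to 40.3 FPKM and 29.8 to 40.1 FPKM in the 2 groups, and glial and Schwann markers to 3.03 to 6.92 FPKM and 3.34 to 3.54 FPKM. The part of these ranges in the results was not tested.

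Differences below were tested with limma-trend on log2(FPKM + 0.5), where FPKM is fragments per kilobase of gene length, scaled to each library's assigned fragments. The 13984 genes with at least 1 FPKM in at least 3 libraries were tested, and a gene passed at a Benjamini-Hochberg adjusted p under 0.05. Over all tested genes 159 passed, 1.14%, 74 of them (0.529%) upward and 85 (0.608%) downward in labelled overexpression. Of the 8 genes, 5 were high enough to be tested and 0 passed. CDKN2B-AS1, CDKN2B and CDKN1B lay below that filter, were fitted beside the tested genes, and did not pass either. At an unadjusted limma-trend p under 0.05 there was 1 of the 8, CDKN2C, against 2477 of all tested genes (17.7%). Limma-voom on the recovered fragments called 0 of the 8 as well, with 2 at an unadjusted p under 0.05, CDKN2C and CDKN1B, against 17.5% of all tested genes. In bulk RNA, fewer cells expressing a gene and less of its RNA per cell cannot be told apart.

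The lncRNA is described first because the labels name it as the overexpressed gene. CDKN2B-AS1 had control vector levels of 0.272, 0.288 and 0.191 FPKM, in order of replicate number, and labelled overexpression levels of 0.338, 0.304 and 0.353 FPKM. Every labelled overexpression library was above every control, though the second of them exceeded the second control by little. These levels rested on 168.92 to 250.08 fragments in the control and 127.08 to 353.42 in the labelled overexpression libraries. How many of these fragments came from bases shared with CDKN2A or other overlapping gene models was not tested. The ratio of means was 1.33, with an exact permutation p of 0.1, two-sided and as low as 3 against 3 can go, and a limma-trend log2 fold change of 0.15 (95% interval -0.50 to 0.80, adjusted p = 0.830). At such low levels the added 0.5 shrinks the limma-trend value. On the recovered fragments limma-voom gave 1.36-fold, with a 95% interval of 0.910 to 2.03.

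Such separation of the groups was common in these data. The groups did not overlap for 24.1% of the tested genes, 14.2% higher and 9.90% lower, and for 21.0% of the 21722 genes with at least 0.1 FPKM in at least 3 libraries. Among the 8 genes they did not overlap for 4, with CDKN2B-AS1, CDKN1B and CDKN2C higher and CDKN2B lower. CDKN2B stood below both filters, so neither background describes genes of its level. After rescaling each library to the same total, where 26.7% of tested genes did not overlap, CDKN1A was apart as well. With median-of-ratios factors, where 23.8% did not overlap, CDKN2C was no longer apart.

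The INK4 neighbours of the lncRNA were both lower in mean. CDKN2A stood at 6.99, 5.15 and 4.65 FPKM in the controls and at 5.07, 4.52 and 3.66 FPKM in the labelled overexpression libraries, in order of replicate number. Its groups overlapped, since the first labelled overexpression library exceeded the third control. The limma-trend log2 fold change was -0.30 (95% interval -0.76 to 0.15, adjusted p = 0.476), an interval that holds a fall as well as a small rise.

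CDKN2B, whose product p15INK4b mediates growth arrest by TGF-beta, was barely detected. It stood at 0.0568, 0.0409 and 0.0475 FPKM in the controls and at 0.0250, 0.0275 and 0.0264 FPKM in the labelled overexpression libraries. Single libraries held 4.75 to 10.25 and 2.25 to 5.17 fragments, so the separation rests on a few fragments each. The depth-scaled ratio of summed fragments was 0.530, and the exact 95% binomial interval, for counting error alone, ran from 0.224 to 1.15. This interval includes a ratio of 1, so at this depth the summed fragments did not differ beyond counting error. Its exact permutation p was 0.1 and its limma-trend log2 fold change -0.06 (adjusted p = 0.945), a scale on which so low a gene can hardly move.

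The remaining INK4 genes lie away from the locus, and CDKN2C had the highest FPKM of the INK4 genes in every library. CDKN2C stood at 15.7, 17.0 and 21.6 FPKM in the controls and at 23.9, 25.3 and 22.2 FPKM in the labelled overexpression libraries. The third control reached nearly the level of the third labelled overexpression library, and the other controls lay well below all 3. Control and labelled overexpression means were 18.1 ± 3.13 and 23.8 ± 1.52 FPKM (SD, n = 3 each). The limma-trend log2 fold change was 0.40 (95% interval 0.07 to 0.72), with an adjusted p of 0.201 and an unadjusted limma-trend p of 0.0208. Without control vector replicate 3 it was 0.53 (limma-trend, adjusted p = 0.0770), still short of the threshold.

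CDKN2D, which encodes p19INK4d, varied mainly among the controls. It stood at 4.52, 8.34 and 10.9 FPKM there and at 7.48, 8.31 and 7.0 FPKM in the labelled overexpression libraries, all 3 of which fell inside the control range. The ratio of means was 0.960 while the limma-trend log2 fold change was 0.02 (95% interval -0.58 to 0.62, adjusted p = 0.979), so not even the sign was settled. Without control vector replicate 1, the lowest control, the log2 fold change was -0.31 (limma-trend, adjusted p = 0.428).

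Summed over the 4 INK4 genes, the level was 27.3, 30.5 and 37.2 FPKM in the controls and 36.5, 38.1 and 32.9 FPKM in the labelled overexpression libraries. CDKN2C supplied 55.6% to 58.1% of that sum in the controls and 65.5% to 67.5% in the labelled overexpression libraries, without overlap. CDKN2B supplied almost none of it in any library. Single tested genes did not overlap in 24.1% of cases, and no such background was taken for shares. The shares also depend on the gene lengths used. Had every fragment come from the longest protein-coding GENCODE v29 transcript, the control means would be 18.8 FPKM for CDKN2C and 17.0 FPKM for CDKN2A.

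Among CIP/KIP genes, CDKN1A had the highest level and CDKN1B the largest ratio of means. CDKN1A, a p53 target whose product p21 also binds PCNA, stood at 93.5, 71.8 and 75.2 FPKM in the controls and at 92.9, 95.5 and 88.7 FPKM in the labelled overexpression libraries. The first control was as high as the labelled overexpression libraries, and the other controls were lower. The limma-trend log2 fold change was 0.21 (95% interval -0.05 to 0.47, adjusted p = 0.381). It was 0.32 with a common total per library (adjusted p = 0.179) and 0.16 with median-of-ratios factors (adjusted p = 0.505), again with limma-trend.

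CDKN1B, whose product p27 holds CDK2 inactive in resting cells, stood at 0.458, 0.465 and 0.411 FPKM in the controls. It stood at 0.785, 0.987 and 0.763 FPKM in the labelled overexpression libraries. The controls lay close together, and the lowest labelled overexpression library was well above the highest of them. The fragments behind these values numbered 125 to 191 and 187 to 346 per library. Control and labelled overexpression means were 0.444 ± 0.0294 and 0.845 ± 0.124 FPKM (SD, n = 3 each), and the exact permutation p, two-sided, was 0.1.

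The test did not call CDKN1B. Its limma-trend log2 fold change was 0.51 (95% interval -0.08 to 1.09, adjusted p = 0.349), and adding 0.5 shrinks differences at such low levels. Limma-voom on the recovered fragments gave 1.88-fold, with a 95% interval of 1.3 to 2.72 before adjustment and an adjusted p of 0.109. The mean was higher under each scaling, with ratios of 2.05 for a common total per library and 1.84 for median-of-ratios factors. With the gene length trend removed, the log2 fold change was 0.34 (limma-trend, adjusted p = 0.557), the lowest among the 17 other settings. The deposited model of CDKN1B spans 9255 exon bases, against 2657 in its longest protein-coding GENCODE v29 transcript, a length that lowers its FPKM against one per base of that transcript.

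CDKN1C, an imprinted gene whose product p57 acts in development, stood at 2.99, 3.41 and 1.53 FPKM in the controls and at 3.52, 3.17 and 2.42 FPKM in the labelled overexpression libraries. The third control was the lowest of the 6, and the other controls lay among the labelled overexpression libraries. The limma-trend log2 fold change was 0.21 (95% interval -0.40 to 0.83, adjusted p = 0.736), and without control vector replicate 3 it was -0.08 (limma-trend, adjusted p = 0.881).

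**Figure D2:**
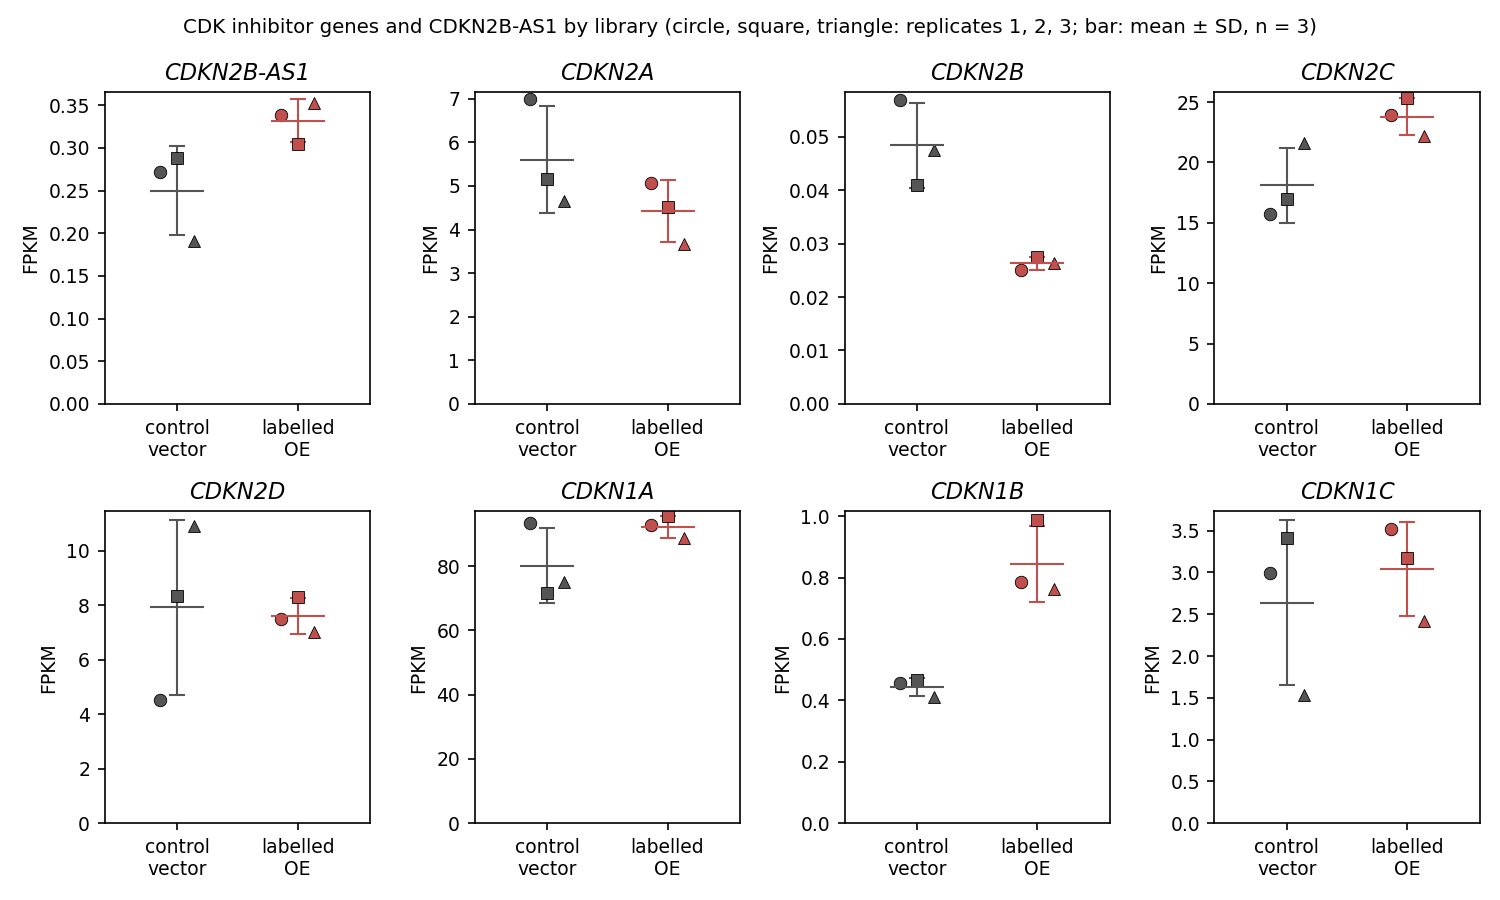
FPKM of the 8 genes in each library, with control vector libraries in grey and labelled overexpression (OE) libraries in red, and the mean ± SD of 3 libraries as bars. The groups do not overlap for CDKN2B-AS1, CDKN2B, CDKN2C and CDKN1B, and each panel has its own axis from 0, so that the panel of CDKN2B covers less than 0.06 FPKM.

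In order of control mean, per gene length, the levels were 80.2 FPKM for CDKN1A, 18.1 for CDKN2C, 7.91 for CDKN2D, 5.60 for CDKN2A, 2.64 for CDKN1C, 0.444 for CDKN1B, 0.250 for CDKN2B-AS1 and 0.0484 for CDKN2B. Each neighbouring pair in this order kept it in all 6 libraries, except CDKN2D and CDKN2A, which kept it in 5 and switched in control vector replicate 1. CDKN1A made up 65.8% to 75.3% of the summed FPKM of the 7 inhibitor genes in the controls and 69.3% to 71.1% in the labelled overexpression libraries.

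The order depended on the length used. An alternative length was that of the longest protein-coding GENCODE v29 transcript or, for CDKN2B-AS1, of its longest transcript. Had every fragment come from that transcript, the control means would be 1.55 FPKM for CDKN1B, 1.33 FPKM for CDKN2B-AS1 and 17.0 FPKM for CDKN2A. Those of CDKN2C and CDKN2D would be 18.8 FPKM and 8.38 FPKM. CDKN2A would then stand above CDKN2D. CDKN2B would stay last at 0.0495 FPKM and CDKN1A first at 106 FPKM.

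**Figure D3:**
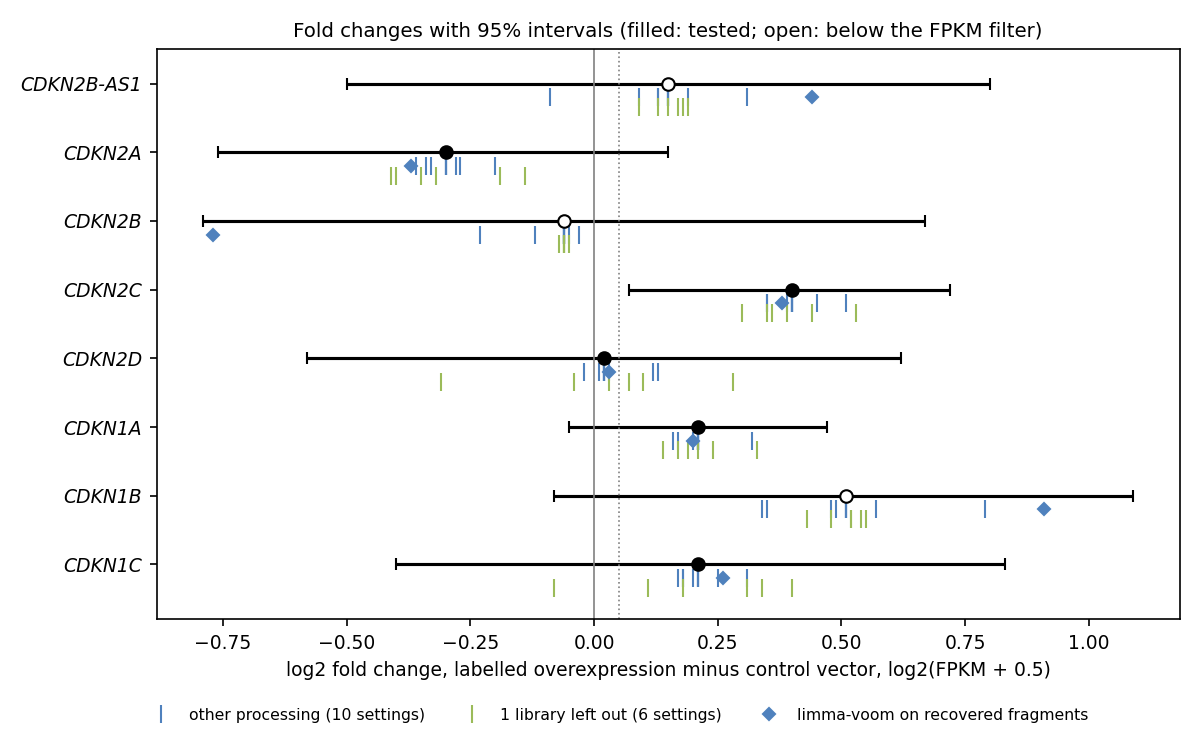
Log2 fold change of each gene, labelled overexpression minus control vector, with the limma-trend 95% interval (filled circles, tested genes; open circles, genes below the FPKM filter), and below it the values under 17 other settings. The dotted line is the median of all tested genes, 0.05; the diamond is on the scale of log2 depth-scaled fragments, and is the setting in which CDKN1B reached 0.91 and CDKN2B -0.77.

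**Figure D4:**
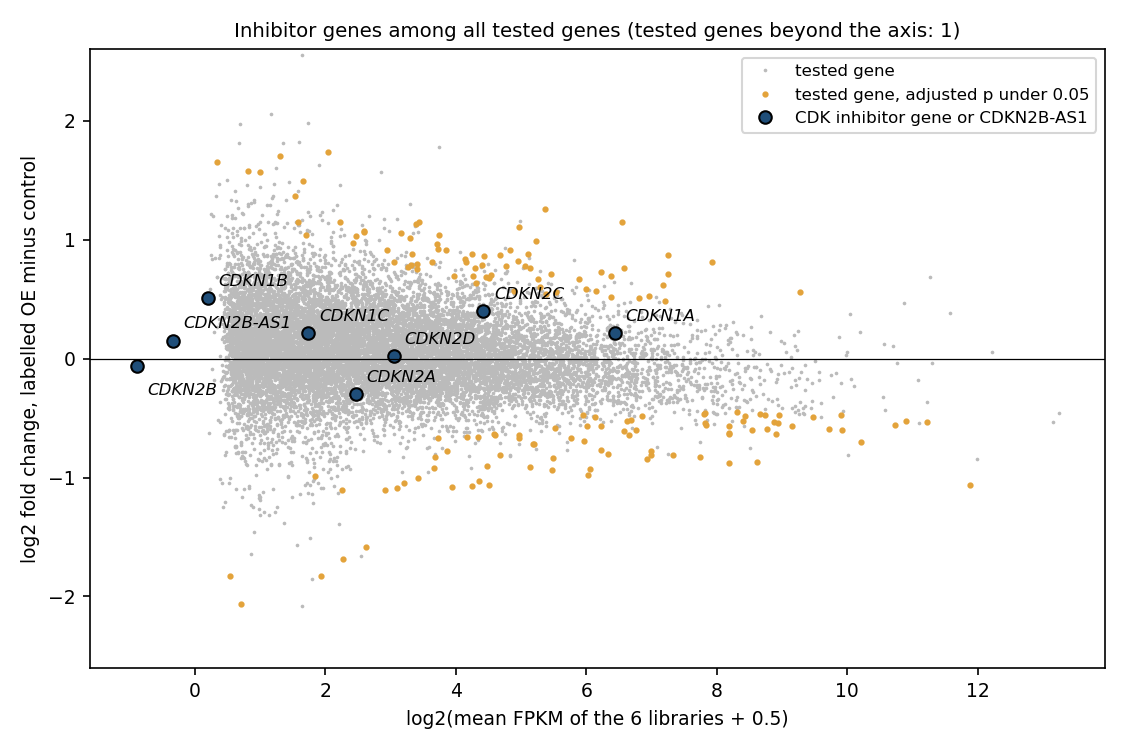
Log2 fold change against mean level for the tested genes (grey), those that passed at an adjusted p under 0.05 (orange) and the 8 genes (blue, named). The blue points lie inside the grey cloud or, for CDKN2B and CDKN2B-AS1, to the left of it, below the filter, and 1 tested gene lies beyond the vertical axis.

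Other genes overlapping the 8 were examined because shared fragments could move with them. There were 7, of which 2 were listed at 0 in all libraries, 3 were tested and 0 passed. ENSG00000264545, a protein-coding gene model on the plus strand that spans the INK4 locus and shares 162 exon bases with CDKN2B-AS1, stood at 7.25 ± 2.15 and 6.56 ± 0.919 FPKM (SD, n = 3 each), with a limma-trend adjusted p of 0.840. A small RNA model within CDKN2B-AS1 exons, ENSG00000274055, was listed at 0, 1.48 and 0 FPKM in the controls and at 1.77, 0.170 and 4.16 FPKM in the labelled overexpression libraries, with no separation (limma-trend, adjusted p = 0.386). The pseudogene UBA52P6, which shares 382 exon bases with the lncRNA, ranged from 0.169 to 0.930 FPKM.

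The divergent lncRNA DINOL, known as a p53-induced RNA, shares 146 exon bases with CDKN1A on the other strand. DINOL ranged from 0.0509 to 0.620 FPKM, with both extremes in controls, and fragments from the shared bases were not separable. GPR19, a receptor gene on the strand opposite CDKN1B, shares 0 exon bases with it and stood at 2.24 ± 1.14 and 2.25 ± 0.675 FPKM (SD, n = 3 each). Within 100 kb of the 8 genes, but not overlapping them, were 49 further genes. Of these 15 were tested and 0 passed with limma-trend or limma-voom, 1 having an unadjusted limma-trend p under 0.05, with a median log2 fold change of 0.09 against 0.05 over all tested genes.

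The proteins that the inhibitors bind, and those that act on the inhibitors, were read from 8 lists. Outside the list of INK4 targets, limma-trend and limma-voom each called 0 genes in these lists, and the count at an unadjusted limma-trend p under 0.05 is given with each, to be read against 17.7% over all tested genes. In the list of INK4 targets, the D-type cyclins with CDK4 and CDK6, 1 of 4 tested genes rose and 3 did not pass (3 of the 4 unadjusted). CCND1, cyclin D1, stood at 54.2, 55.9 and 61.3 FPKM in the controls and at 119, 154 and 112 FPKM in the labelled overexpression libraries, well apart, with a limma-trend log2 fold change of 1.15 (SE 0.13, adjusted p = 0.0215). It shares 497 exon bases with LTO1 on the other strand, which had 1.03 (limma-trend, adjusted p = 0.0438), so their fragments were not separable. The call was lost without control vector replicates 1 and 2 (limma-trend, adjusted p = 0.0748 and 0.0754) and without labelled overexpression replicates 1 and 2 (adjusted p = 0.0620 and 0.0537), while the log2 fold change stayed between 1.01 and 1.24. CDK4 and CDK6, named here after their values were seen, differed in sign, at -0.32 and 0.51, without passing (limma-trend, adjusted p = 0.137 and 0.238), and CCND2 was listed at 0 in all libraries.

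In the list of CIP/KIP targets, CDK2, CDK1 and their cyclins, 0 of 8 tested genes passed (1 unadjusted), with a median log2 fold change of 0.07. The smallest p belonged to CCNB2, a mitotic cyclin, at -0.23, and CCNE1, the cyclin E1 that p27 and p21 hold back, at 0.77, from 0.657 ± 0.465 to 1.35 ± 0.0868 FPKM (SD, n = 3 each). In the list of RB and E2F genes 0 of 13 passed (2 unadjusted), with a median of 0.07. E2F7, an E2F repressor, had 1.07 (limma-trend, adjusted p = 0.0893), with 1.21, 2.63 and 1.33 FPKM in the controls and 4.38, 3.46 and 4.22 FPKM in the labelled overexpression libraries. E2F3, an activating E2F, had 0.51.

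Of the genes for CDK activation and inhibitory phosphorylation, 0 of 9 passed (3 unadjusted), with a median of 0.06. CDC25A and CDC25B, phosphatases that activate CDKs, had 0.67 and 0.37, each with the groups apart. Of the genes that govern the turnover of CIP/KIP proteins, 0 of 12 passed (4 unadjusted) and the median was -0.12. DTL, the receptor of the ligase that destroys p21 in S phase, had 0.44, and CKS1B, a cofactor for degradation of p27, had -0.32, each with the groups apart.

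Among transcription factors that act on inhibitor genes, 0 of 15 passed (4 unadjusted), with a median of 0.07. FOXO3, an activator of CDKN1B, stood at 3.42, 3.77 and 5.04 FPKM in the controls and at 7.95, 6.84 and 7.80 FPKM in the labelled overexpression libraries. Its groups were apart, with a log2 fold change of 0.82 (limma-trend, adjusted p = 0.0672). It passed without control vector replicate 3, at 0.97 (limma-trend, adjusted p = 0.0448). With any other single library left out it did not pass (limma-trend, adjusted p from 0.148 to 0.238). SP1, which binds GC boxes, had 0.76 with the groups apart (limma-trend, adjusted p = 0.126).

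Among Polycomb subunits and H3K27 demethylases, 0 of 16 tested genes passed (2 unadjusted) and the median was 0.10. EZH1, a histone methyltransferase of Polycomb repressive complex 2, stood at 0.497 ± 0.285 and 1.83 ± 0.828 FPKM, and JARID2, which helps to recruit that complex, at 3.08 ± 1.04 and 5.28 ± 0.522 FPKM (SD, n = 3 each), each with the groups apart. Of p53 targets other than CDKN1A, 0 of 18 passed (2 unadjusted), 11 had a positive and 7 a negative log2 fold change, and the median was 0.06. PLK2, a kinase, had 1.57 (limma-trend, adjusted p = 0.0627), and it passed without control vector replicate 1, at 2.02 (limma-trend, adjusted p = 0.0301). Leaving out any other single library, PLK2 did not pass (limma-trend, adjusted p from 0.0902 to 0.207). SESN1, a stress-induced sestrin, had -0.43. It shares 363 exon bases with RP11-787I22.3 on the other strand, which had -0.55, so fragments from the shared bases were not separable.

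**Figure D5:**
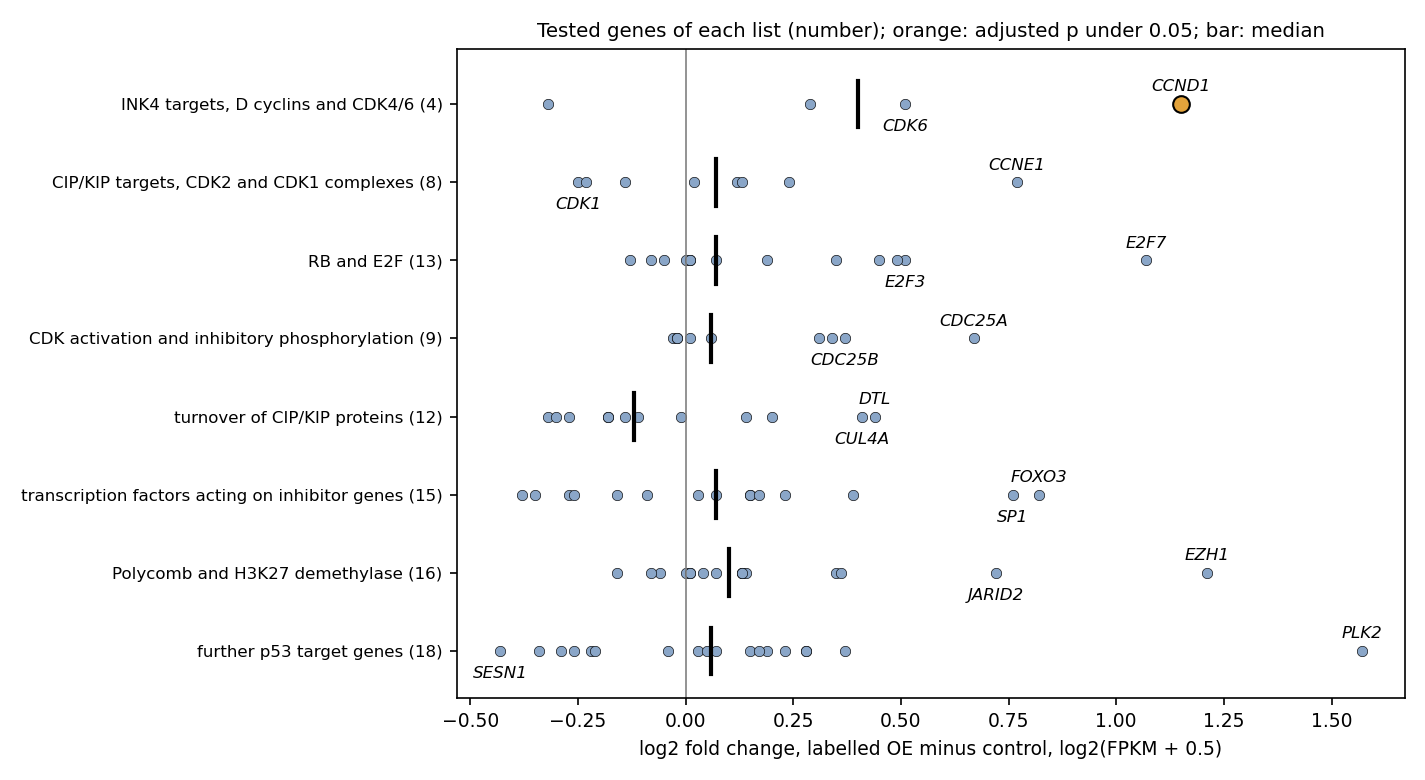
Log2 fold change, labelled overexpression minus control vector, of the tested genes in each list, with the median as a black bar and the number tested in parentheses; the 2 genes farthest from 0 are named. CCND1 is the only gene of these lists past the threshold, and 7 of the 8 medians lie between -0.12 and 0.10, the list of INK4 targets standing at 0.40 over 4 genes.

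The genes whose profile over the 6 libraries was most like that of CDKN2B-AS1 were L34079.4, WDR82 and CLN3, with Pearson's r of log2(FPKM + 0.5) of 0.9967, 0.9937 and 0.9912. For CDKN1A, GPATCH4 and ETV3 were among them, with 0.9863 and 0.9851. These values describe likeness only: 248 of 13984 genes reached an r of at least 0.9 with CDKN2B-AS1 and 191 of 13983 with CDKN1A, over 6 libraries that share the difference between the groups.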

How the data were processed

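RNA from 6 SH-SY5Y samples was made into cDNA with a low-input SMART-seq kit and sequenced as paired ends, per the labels' protocols. GRCh38.p13 (hg38), STAR 2.7.9 and featureCounts 2.0.1 are listed, per the submitters' processing notes, with options and use of strand not given in the sources used here. The authors deposited FPKM per gene and library, as the table is titled. Each FPKM value times its gene length moved in steps of 0.01 fragments in 100% of values of up to 1000 fragments, within 0.001, and gave each library's depth; 44.2% to 49.0% of these values were whole, so fragments are fractional and no count model was the main test.

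The test was limma-trend, that is limma 3.58.1 (R 4.3.3) with a prior variance that follows the mean level, applied to log2(FPKM + 0.5) of genes with at least 1 FPKM in at least 3 libraries, and p-values were adjusted over all of these by Benjamini-Hochberg. Single genes were also tested with an exact permutation test over samples. The fit was tested on simulated data. Intervals on summed fragments cover counting error only. Beside all 8 genes and those overlapping them, up to 6 passing genes of each list, or otherwise the 2 of smallest p, were named. The genes and lists were chosen with earlier results of these data known. Alternatives covered pseudocount, filter, scaling, trend, array weights, limma-voom, gene length, a replicate block and each library left out; median-of-ratios factors in the permutation test were added after seeing the data. Some genes that these rules would name are not reported here.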

Additional observations from a re-analysis of the deposited data

How the results depend on the processing

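None of the 8 genes passed under any of 17 alternatives, in which the lowest adjusted p (limma) was 0.0770, for CDKN2C without control vector replicate 3. CDKN2A, CDKN2B, CDKN2C, CDKN1A and CDKN1B kept their direction in all 17. The log2 fold change turned to -0.09 for CDKN2B-AS1 with the gene length trend removed, to -0.08 for CDKN1C without control vector replicate 3, and for CDKN2D to -0.02 with median-of-ratios factors, -0.31 without control vector replicate 1 and -0.04 without labelled overexpression replicate 2 (range with a library left out -0.31 to 0.28, and -0.08 to 0.40 for CDKN1C); the ratio of CDKN2D means was 1.04 with a common total per library. The cause was not tested. The number of genes called over all tested genes was 159, and 265 with array weights. It was 0 without a filter, 0 with a filter of 0.1 FPKM and 0 without the trend, where 3538, 3156 and 2304 genes had an unadjusted limma p under 0.05. It ran from 0 to 139 with a library left out; the settings with 0 calls, without control vector replicate 2 and labelled overexpression replicates 1 and 2, had 2274, 1689 and 1612 genes at an unadjusted limma p under 0.05. The split was 74 higher and 85 lower, 181 and 52 with a common total, 59 and 119 with median-of-ratios factors, 149 and 116 with array weights, 79 and 48 with limma-voom and 45 and 107 with the length trend removed. The median over all tested genes was 0.05, 0.15 with a common total and 0.01 with median-of-ratios factors.

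In the list of INK4 targets the count of called genes was 0 without a filter, 0 with a filter of 0.1 FPKM and 0 without the trend, and 0 to 1 with a library left out. Among the transcription factors it was 1 (FOXO3) with a common total and 1 with array weights, and 0 to 1 with a library left out. Among further p53 targets it was 1 (PLK2) with a common total, 1 with array weights and 1 with the replicate block, and 0 to 1 with a library left out. Same-numbered libraries share only a number: their deviations from the group means correlated at -0.024, 0.105 and 0.119 for numbers 1, 2 and 3, and not every library correlated best with its own number. With the replicate block 229 genes were called, and CDKN2C had an adjusted limma p of 0.184 and CDKN1B of 0.354. Depth limits CDKN2B, at 2.25 to 10.25 fragments per library.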
